A study of Mus musculus with 9 samples.

Results

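Muscle stem cells of adult mice were compared with those of fetal mice across all genes measured on Illumina bead arrays. The comparison used 6 of the 9 arrays of the series, 3 of fetal cells (embryonic day 16.5) and 3 of adult cells (2 months of age), and covered 12488 genes, each represented by its brightest probe. Both groups came from C57BL/6 mice, with mouse muscle as the stated source, and neither carried a labelled transgene, deletion or treatment. In both, the cells had been flow sorted on α7-integrin, a laminin receptor subunit, and on the surface sialomucin CD34. A further 3 arrays, of neonatal cells taken 7 days after birth, entered the statistical fit only for its estimate of the spread. The labels name neither the muscles taken, the sex of the animals nor whether replicates came from separate animals, so the spread behind the p-values may be a technical one. Array data carry no read depth, and the number of arrays limited the precision.

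Muscle stem cells lie between the muscle fibre and its basement membrane. In the fetus they divide and supply nuclei to growing fibres, whereas in the resting adult muscle most are out of the cell cycle and are called back after injury. The paired box factor Pax7 marks them at both ages, Notch signalling holds them in the stem cell state, and the matrix around them, partly of their own making, carries growth factor and adhesion signals. The series was named for the study of how these cells remodel that matrix as they develop.

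Values below are log2 intensities, listed for replicates 1, 2 and 3 of each group, and differences are adult minus fetal on the log2 scale with the SE of the fit. A gene was called at a limma Benjamini-Hochberg adjusted p under 0.05 over all 12488 genes, and "higher" and "lower" or "rose" and "fell" refer to called genes. The arrays carry a background, so a level under 7.82, the lower quartile of all probes, has little measured signal beneath it, and differences of such genes may be understated. For each list or family given below with 0 called members in a direction by limma, 0 members had an unadjusted p under 0.05 in that direction, apart from the circadian list and the Y-linked genes, with 1 each. In these bulk samples fewer cells of a type and less RNA per cell cannot be told apart.

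Adult and fetal cells differed in 5654 of 12488 genes (45.3%), of which 2733 (21.9% of all genes) were higher and 2921 (23.4%) lower in adult cells. The difference was at least 2-fold for 1026 of the higher and 786 of the lower genes, and at least 8-fold for 78 and 39. The fetal and adult arrays did not overlap for 5471 of the called genes, and for 6807 of all 12488 genes. For 4115 of the called genes the neonatal mean lay between the other two, nearer the fetal mean in 2906 of them. The first principal component of the 6 arrays held 85.8% of the variance and separated the ages, with fetal arrays at -38.1, -49.3 and -48.7 and adult arrays at 50.6, 52.0 and 33.4. Adult replicate 3 stood apart from the other adult arrays, also on the second component at 23.02, and was the adult array nearest to the fetal level for 3122 of the called genes. Without it 5810 genes were called. Fetal replicate 1 was the fetal array nearest to the adult side on the first component.

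**Figure D1:**
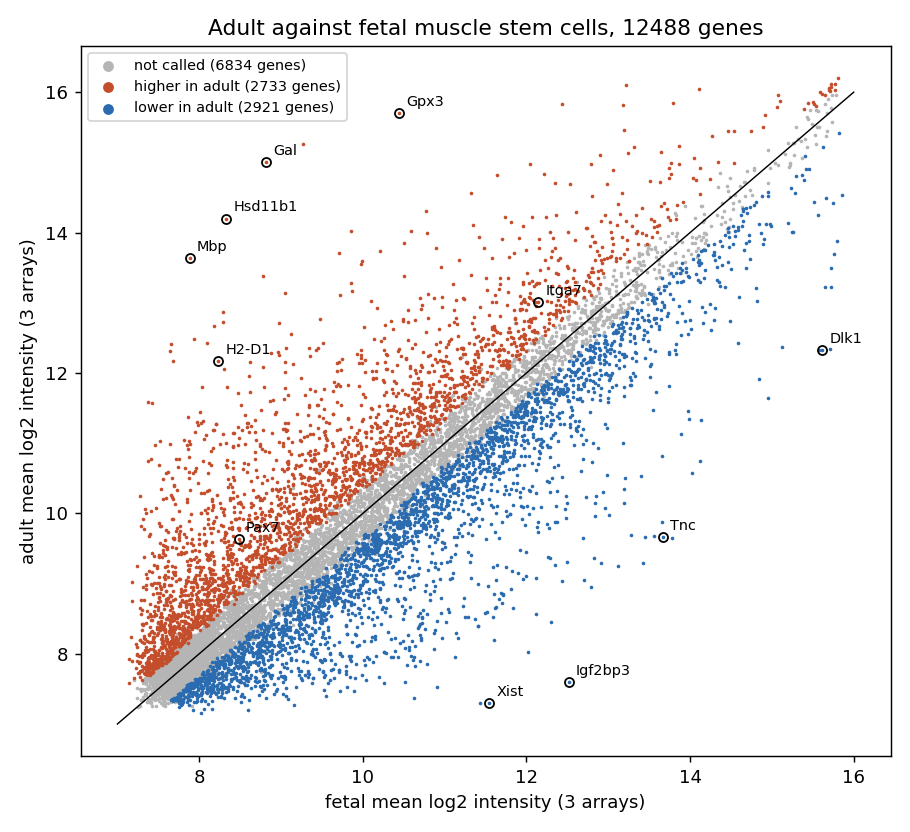
Mean log2 intensity of each of the 12488 genes in the 3 fetal arrays (horizontal) and in the 3 adult arrays (vertical), coloured by call, with the line of equal levels. The 2733 genes higher in adult cells lie above the line and the 2921 lower ones beneath it, and Gal, Hsd11b1 and Igf2bp3 are among those farthest from it.

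The genes of the sort and the first markers of muscle stem cells examined were either higher in adult cells or not called. Itga7, which encodes α7-integrin, measured 12.34, 11.91 and 12.19 in the fetal and 13.21, 12.71 and 13.12 in the adult arrays (0.87, SE 0.18, limma adjusted p = 0.00194). Cd34 measured 9.22, 9.06 and 9.04 in the fetal and 9.39, 9.99 and 8.95 in the adult arrays and was not called (0.33, SE 0.23, limma adjusted p = 0.252). The 2 groups overlapped for Cd34, with adult replicate 3 lowest of all, and without that array it was called (0.58, limma adjusted p = 0.0305). Pax7 measured 8.42, 8.54 and 8.50 in the fetal and 9.99, 9.63 and 9.28 in the adult arrays and was higher in every adult array (1.15, SE 0.16). Myf5, an early myogenic factor, lay near the low end of the arrays at both ages, 7.78, 7.75 and 7.78 in the fetal and 7.62, 7.71 and 7.90 in the adult arrays, and was not called. Calcr, the calcitonin receptor of quiescent stem cells, rose from 9.07, 8.29 and 8.93 in the fetal to 10.69, 11.30 and 10.74 in the adult arrays (2.14, SE 0.22). Vcam1, an adhesion receptor used to sort these cells, was higher in adult cells (0.77, SE 0.16), while M-cadherin, Cdh15 (0.21, SE 0.12), and syndecan 4, Sdc4 (-0.02, SE 0.19), were not called.

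The largest rises came from genes of unlike function. Gal, which encodes the neuropeptide galanin, measured 10.11, 8.22 and 8.13 in the fetal and 15.08, 15.17 and 14.78 in the adult arrays (6.19, SE 0.41, limma adjusted p = 4.96e-07). Erfe, the hormone erythroferrone that lowers hepcidin, measured 10.08, 8.96 and 8.77 in the fetal and 15.59, 15.48 and 14.72 in the adult arrays (5.99, SE 0.34). In both genes fetal replicate 1 was the highest fetal array, and the groups stayed far apart. Hsd11b1, the enzyme that regenerates active glucocorticoid, measured 8.88, 8.10 and 8.01 in the fetal and 14.49, 14.48 and 13.62 in the adult arrays (5.87, SE 0.27), and all 3 of its probes rose. Gpx3, a secreted glutathione peroxidase, went from 10.69, 10.40 and 10.22 in the fetal to 15.80, 15.70 and 15.59 in the adult arrays (5.26, SE 0.13). Its adult levels lay near the highest values of the arrays, so that difference may be understated. Igfbp6, a binding protein with preference for IGF-II, measured 9.73, 8.32 and 8.31 in the fetal and 13.64, 13.55 and 12.95 in the adult arrays (4.59, SE 0.59). Esr1, the estrogen receptor alpha gene, rose from the low end of the arrays, 7.58, 7.22 and 7.48 in the fetal and 11.26, 11.86 and 11.61 in the adult arrays (4.15, SE 0.18). Among the other leading rises were the surface glycoprotein gene Cd200 (4.49, SE 0.36), the LIM-only factor gene Lmo2 (4.55, SE 0.26), the sialidase gene Neu2 (4.44, SE 0.33), the nuclear corepressor gene Hr (4.33, SE 0.15), the epoxide hydrolase gene Ephx1 (4.09, SE 0.29) and Plekhb1 (4.50, SE 0.17). Mustn1, a small nuclear protein of the musculoskeletal system, rose by 4.67 (SE 0.37). The myelin genes Mbp and Ncmap, the smooth muscle myosin gene Myh11 and the globin gene Hba-a1 also belong to the 20 largest rises and are given with the markers of other cell types.

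The largest falls also came from genes of unlike function. Igf2bp3, which binds and stabilises messenger RNAs of embryonic tissues, measured 12.35, 12.56 and 12.63 in the fetal and 7.68, 7.67 and 7.44 in the adult arrays (-4.92, SE 0.12, limma adjusted p = 6.99e-10), and its relative Igf2bp1 measured 11.57, 11.48 and 11.26 in the fetal and 7.28, 7.17 and 7.44 in the adult arrays (-4.14, SE 0.13). All adult arrays of both genes lay under 7.82, so these differences may be understated. The other probes of Igf2bp3 gave differences from -4.15 to -0.32, the last not called (limma adjusted p = 0.0549 over all probes). Those of Igf2bp1 gave -2.64 to -2.14. Both belong to a list of the Lin28 axis, the RNA-binding programme of embryonic tissues. Of its 14 measured members 2 were higher (14.3%) and 6 lower (42.9%), against 21.9% and 23.4% over all genes. The median difference of the list was -0.17. Its other called differences were smaller, with the growth regulator gene Myc higher (1.44, SE 0.22) and the RNA-binding protein gene Elavl2 (-0.94, SE 0.14) and the zinc finger gene Plagl2 (-0.70, SE 0.14) lower. When 1 array was left out, the number higher was 1 without fetal replicate 3 or adult replicate 1. Cep41, a centrosome and cilium protein, went from 13.26, 13.54 and 13.48 in the fetal to 9.10, 9.20 and 9.56 in the adult arrays (-4.14, SE 0.16). Ptn, the heparin-binding growth factor pleiotrophin, measured 12.61, 12.84 and 12.91 in the fetal and 8.71, 9.001 and 9.16 in the adult arrays (-3.83, SE 0.16). Stab1, a scavenger receptor, measured 13.47, 13.78 and 13.42 in the fetal and 9.36, 9.13 and 10.53 in the adult arrays (-3.88, SE 0.28), with adult replicate 3 the highest of the adult arrays. The X-linked genes Rtl3 (-3.78, SE 0.27) and Kcne1l (-3.77, SE 0.22) and the nucleotidase-like gene Nt5dc2 (-3.65, SE 0.28) fell to a similar extent.

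**Figure D2:**
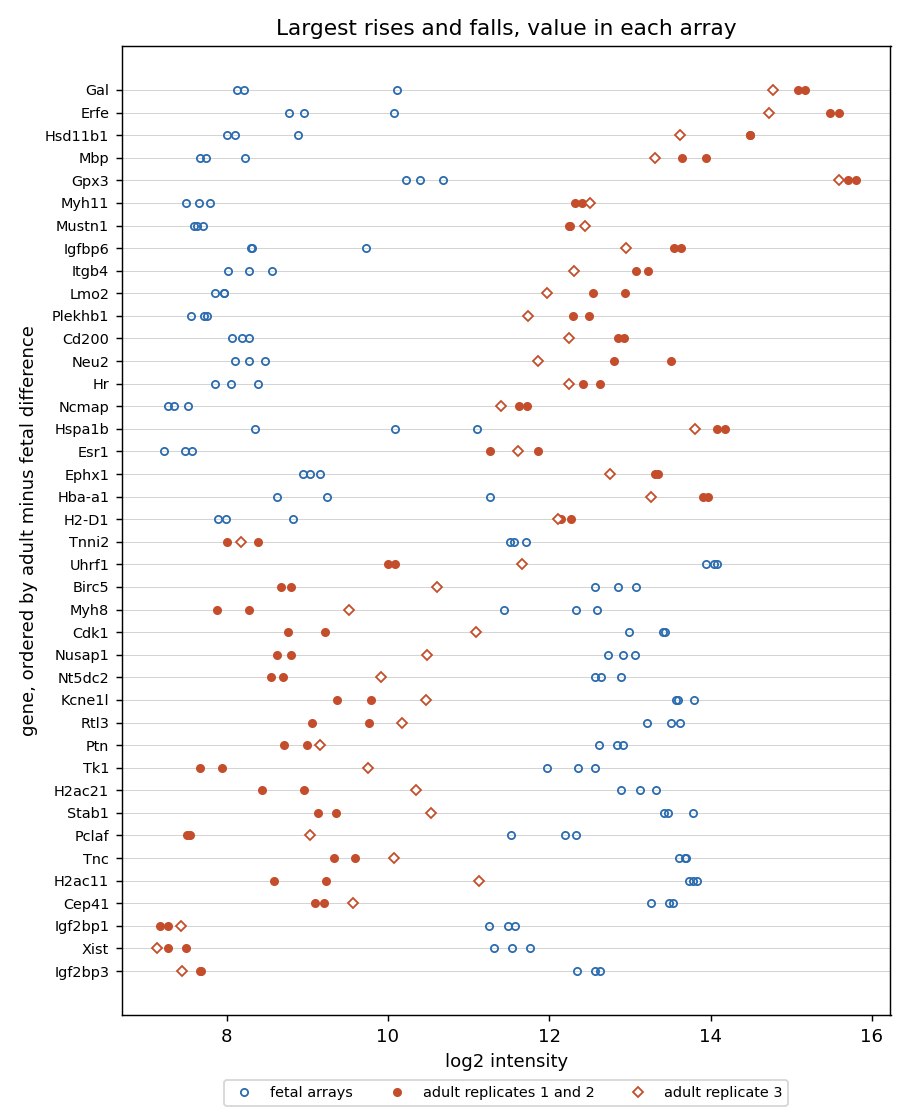
Log2 intensity in each fetal array (open circles), adult replicates 1 and 2 (filled circles) and adult replicate 3 (diamonds) for the 20 largest rises and 20 largest falls. Fetal and adult points do not overlap for any of these genes, which the rule for choosing them required, with Gal first among the rises at a mean difference of 6.19 and Igf2bp3 first among the falls at -4.92.

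Genes of cell division fell almost as a block. In the cell cycle list, of 72 measured members 1 was higher and 68 lower in adult cells, with a median difference of -2.29, against 23.4% lower and a median of -0.01 over all genes. Tk1, the S phase thymidine kinase, measured 11.97, 12.36 and 12.56 in the fetal and 7.95, 7.67 and 9.75 in the adult arrays (-3.84, SE 0.41, limma adjusted p = 1.70e-05). Cdk1, the kinase that drives mitosis, measured 12.98, 13.41 and 13.44 in the fetal and 9.22, 8.76 and 11.10 in the adult arrays (-3.58, SE 0.44). Cdca8, a subunit of the chromosomal passenger complex, measured 12.29, 12.57 and 12.45 in the fetal and 8.46, 8.20 and 10.44 in the adult arrays (-3.40, SE 0.44). In all 3 genes adult replicate 3 lay between the other adult arrays and the fetal ones. The same held for the list as a whole, whose median level was 11.32, 11.53 and 11.54 in the fetal and 8.66, 8.53 and 9.77 in the adult arrays. Without adult replicate 3 the counts were the same, 1 higher and 68 lower, and the median difference was -2.62. By role, all 23 genes of replication licensing and forks fell, including the helicase subunit genes Mcm5 (-2.85, SE 0.30) and Mcm6 (-2.60, SE 0.20). All 10 mitotic kinases and cyclins fell, including Aurkb (-3.05, SE 0.34) and Plk1 (-2.72, SE 0.30). Of 25 spindle, kinetochore and condensation genes 24 fell, including the spindle gene Nusap1 (-3.61, SE 0.37) and Birc5, the survivin gene (-3.47, SE 0.40). Of 14 genes of entry into S phase 11 fell, including Ccne1 (-2.53, SE 0.17) and E2f1 (-2.41, SE 0.30). Pclaf, a factor that binds the replication clamp, fell to a like extent (-3.995, SE 0.35). The exception was Ccnd1, the G1 cyclin D1, which was higher in every adult array, 12.01, 12.28 and 12.05 in the fetal and 13.01, 13.11 and 13.67 in the adult arrays (1.15, SE 0.18).

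Promoters of the cell cycle list are shown for Cdk1 and Cdca8, which were chosen because they hold matches to motifs searched. Cell cycle genes are textbook targets of factors that bind the CHR element, CCAAT boxes and E2F sites. The sequences span the annotated transcription start in RefSeq (GRCm38.p6), at chr10:69352863-69353162, minus strand, for Cdk1 and chr4:124936868-124937167, minus strand, for Cdca8, and capitals mark matches to TTTGAA (CHR), CCAAT, or the E2F letters TTTCCCGC, TTTCGCGC, TTTGCCGC or TTTGGCGC on either strand. Both promoters hold CHR and CCAAT matches, and an E2F match is in that of Cdk1 only. In Cdca8 a CHR match and a CCAAT match overlap by a base.
Cdk1: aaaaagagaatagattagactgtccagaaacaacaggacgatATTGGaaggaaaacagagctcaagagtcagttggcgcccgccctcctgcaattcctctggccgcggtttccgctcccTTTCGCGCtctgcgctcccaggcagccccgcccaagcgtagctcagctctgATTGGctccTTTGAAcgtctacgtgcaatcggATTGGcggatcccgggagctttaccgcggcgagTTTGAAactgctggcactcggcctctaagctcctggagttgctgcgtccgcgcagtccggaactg
Cdca8: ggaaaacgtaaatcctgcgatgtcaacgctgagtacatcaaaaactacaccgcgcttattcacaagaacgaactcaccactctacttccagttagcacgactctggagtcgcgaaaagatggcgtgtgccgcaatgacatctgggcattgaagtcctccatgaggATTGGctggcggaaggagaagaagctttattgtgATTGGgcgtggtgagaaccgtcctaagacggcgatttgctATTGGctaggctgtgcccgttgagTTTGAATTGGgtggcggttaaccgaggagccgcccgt
RefSeq promoters were matched for 60 of the 72 measured genes. A CHR match was in 27 of 68 promoter entries of the list (39.7%) against 17.9% of all 32851 entries. CCAAT was in 47 of 68 promoter entries of the list (69.1%) against 37.4% of all 32851 entries, and an E2F match in 17 of 68 promoter entries of the list (25%) against 2.26% of all 32851 entries. These are descriptions of letters, not of bound sites.

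Genes that work with replication fell too. In the DNA repair list, of 26 measured members 1 was higher and 22 lower in adult cells, with a median difference of -1.21. Without fetal replicate 1, fetal replicate 3 or adult replicate 2 the number higher was 0. The flap endonuclease gene Fen1 fell by 2.16 on the log2 scale (SE 0.22). In the list of serine, folate and nucleotide synthesis, of 23 measured members 0 were higher and 16 lower in adult cells, with a median difference of -0.76, with the thymidylate synthase gene Tyms at -3.04, SE 0.28 and the serine pathway genes Phgdh (-1.46, SE 0.18) and Shmt1 (-1.34, SE 0.13). Among inhibitors and brakes of the cycle the direction was mostly opposite, and of 20 measured members 10 were higher and 3 lower in adult cells, with a median difference of 0.53. Cdkn1a, the p21 inhibitor, measured 13.18, 11.95 and 11.83 in the fetal and 13.91, 13.96 and 13.91 in the adult arrays (1.61, SE 0.28), and Klf9, a Krüppel-like factor, measured 12.16, 11.12 and 12.85 in the fetal and 15.19, 15.17 and 14.56 in the adult arrays (2.93, SE 0.38). Cdkn1c, the imprinted p57 inhibitor, went the other way, 15.83, 15.94 and 15.81 in the fetal and 14.49, 13.50 and 15.61 in the adult arrays (-1.33, SE 0.37, limma adjusted p = 0.0122), and adult replicate 3 lay close to its fetal level, which was near the top of the arrays.

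Chromatin genes fell more often than they rose. In that list, of 50 measured members 7 were higher and 26 lower in adult cells, with a median difference of -0.55. Uhrf1, which brings the maintenance methyltransferase to replicated DNA, measured 13.94, 14.07 and 14.04 in the fetal and 10.08, 9.999 and 11.66 in the adult arrays (-3.44, SE 0.33, limma adjusted p = 8.28e-06), and the methyltransferase gene Dnmt1 measured 12.04, 12.16 and 12.22 in the fetal and 9.73, 9.73 and 10.16 in the adult arrays (-2.27, SE 0.13). The chromatin assembly gene Chaf1b (-2.88, SE 0.25) and the polycomb methyltransferase gene Ezh2 (-1.55, SE 0.24) fell, while the polycomb reader gene Cbx7 rose from 7.72, 7.68 and 7.62 in the fetal to 10.64, 10.36 and 9.72 in the adult arrays (2.57, SE 0.20). Replication-dependent histone genes differed by family. Of 15 H2A genes 11 fell and 3 rose, with a median of -2.23. Several that fell had fetal means from 15.58 to 15.79, near the top of the arrays, so their falls may be understated. H2ac11 measured 13.79, 13.73 and 13.84 in the fetal and 9.24, 8.59 and 11.13 in the adult arrays (-4.13, SE 0.47), and adult replicate 3 again lay nearest to the fetal arrays. H2ac21 fell too (-3.86, SE 0.38). By contrast, of 12 H2B genes 0 fell and 7 rose by limma, with a median of 0.66. Of 8 H3 genes 2 fell and 1 rose, with a median of -0.21, and of 12 H4 genes 5 fell and 1 rose, with a median of -0.31. Members of these families are near-identical copies, so single genes may cross-hybridise, and which copy a probe reads is uncertain.

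**Figure D3:**
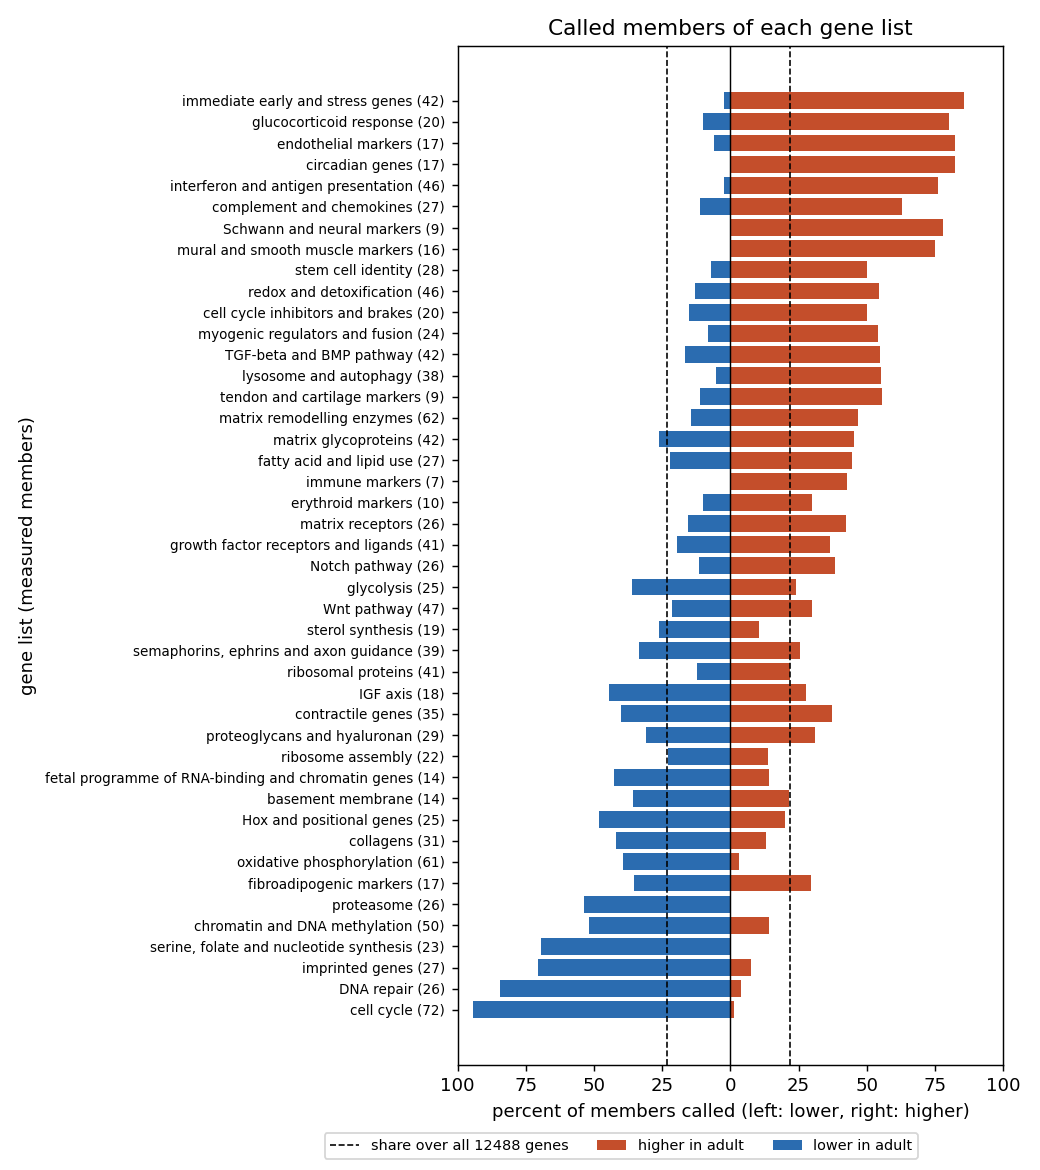
Percent of the measured members of each gene list that were called higher (right) or lower (left) in adult cells, with the number measured in brackets and dashed lines at the share over all genes, 21.9% and 23.4%. The cell cycle list lies at the bottom with 68 of 72 members lower, and the immediate early and stress list at the top with 36 of 42 higher.

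Imprinted genes, many of which act on fetal growth, were mostly lower in adult cells. In the imprinted gene list, of 27 measured members 2 were higher and 19 lower in adult cells, with a median difference of -0.87. Of these counts, the number higher was 1 without fetal replicate 2, fetal replicate 3, adult replicate 1 or adult replicate 2. Dlk1, a non-canonical Notch ligand of fetal tissues, measured 15.51, 15.68 and 15.66 in the fetal and 11.94, 12.25 and 12.80 in the adult arrays (-3.29, SE 0.18, limma adjusted p = 1.35e-07). Its fetal levels lay near the top of the arrays, so the fall may be understated. Mest measured 14.15, 13.80 and 13.97 in the fetal and 10.90, 11.23 and 12.22 in the adult arrays (-2.52, SE 0.26). Igf2, the fetal growth factor, fell less, 15.64, 15.90 and 15.70 in the fetal and 14.36, 14.28 and 14.63 in the adult arrays (-1.32, SE 0.13), and it too lay near the top in fetal cells. The growth regulator genes Grb10 (-1.60, SE 0.22) and Ndn (-1.93, SE 0.11) fell. Nap1l5, a nucleosome assembly relative, was the leading exception, 7.69, 7.72 and 7.64 in the fetal and 10.46, 10.57 and 9.60 in the adult arrays (2.53, SE 0.21). In the IGF axis, of 18 measured members 5 were higher (27.8%) and 8 lower (44.4%), against 21.9% and 23.4% over all genes. The median difference of the list was -0.07, and its binding proteins moved in both directions. Igfbp2 measured 10.62, 10.70 and 10.57 in the fetal and 7.44, 7.27 and 7.41 in the adult arrays (-3.26, SE 0.15) and Igfbp3 12.29, 12.25 and 12.31 in the fetal and 8.56, 9.11 and 10.41 in the adult arrays (-2.92, SE 0.34), while Igfbp7 (1.70, SE 0.31) rose beside Igfbp6. The clearance receptor gene Igf2r fell (-0.93, SE 0.12), and Igf1 was not called (0.13, SE 0.21).

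Stem cell and Notch genes were more often higher in adult cells. In the stem cell identity list, of 28 measured members 14 were higher and 2 lower in adult cells, with a median difference of 0.61. When 1 array was left out, the number lower was 1 without fetal replicate 2, fetal replicate 3 or adult replicate 1. Beside Pax7 and Calcr, the tetraspanin gene Cd82 was higher, 13.03, 13.17 and 13.30 in the fetal and 14.49, 14.55 and 14.66 in the adult arrays (1.40, SE 0.13). In the Notch pathway, of 26 measured members 10 were higher and 3 lower in adult cells, with a median difference of 0.15. Of 6 Notch targets 5 rose, including Hes1 (1.502, SE 0.21), Hey1 (1.03, SE 0.11) and Heyl (0.65, SE 0.16). Hey1 measured 12.91, 12.80 and 12.79 in the fetal and 13.82, 13.94 and 13.85 in the adult arrays, with all adult arrays above all fetal ones. The receptor gene Notch3 rose (0.97, SE 0.18) and Notch1 was not called (0.12, SE 0.15). Notch3, Hes1 and their relatives are also active in mural cells of vessels, whose markers are given further on.

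Myogenic regulators were more often higher in adult cells. In the list of myogenic regulators and fusion, of 24 measured members 13 were higher and 2 lower in adult cells, with a median difference of 0.53. Without adult replicate 3 the number lower was 4. Myod1, the determination factor, measured 10.93, 10.95 and 11.12 in the fetal and 12.12, 12.17 and 11.83 in the adult arrays (1.04, SE 0.13). Myog, the factor of terminal differentiation, measured 11.26, 11.45 and 11.45 in the fetal and 10.41, 9.86 and 12.29 in the adult arrays and was not called (-0.53, SE 0.49, limma adjusted p = 0.407). Adult replicate 3 lay above every fetal array and the other adult arrays beneath them, and without adult replicate 3 Myog was called lower (-1.25, limma adjusted p = 0.00406). Des, the intermediate filament desmin, was higher (1.73, SE 0.14), as was the acetylcholine receptor subunit gene Chrna1 (1.68, SE 0.15). Chrng, the fetal subunit of that receptor, fell, 11.98, 11.79 and 11.72 in the fetal and 8.97, 7.90 and 10.68 in the adult arrays (-2.64, SE 0.49, limma adjusted p = 0.000908). Contractile genes moved in both directions, and of 35 measured members 13 were higher (37.1%) and 14 lower (40%), against 21.9% and 23.4% over all genes. Their median difference was -0.10. Of 7 developmental isoforms 5 fell and 0 rose by limma. Myh8, the perinatal myosin heavy chain, measured 11.44, 12.59 and 12.33 in the fetal and 8.28, 7.89 and 9.51 in the adult arrays (-3.56, SE 0.37), and the cardiac actin gene Actc1 measured 13.90, 14.20 and 14.29 in the fetal and 10.61, 9.08 and 12.55 in the adult arrays (-3.38, SE 0.64), again with adult replicate 3 highest among adult arrays. The fast fibre genes Actn3 (3.40, SE 0.14), Mylk2 (3.27, SE 0.24) and Atp2a1 (2.18, SE 0.31) rose, but Tnni2, the fast troponin I, fell, 11.72, 11.57 and 11.51 in the fetal and 7.9995, 8.39 and 8.17 in the adult arrays (-3.41, SE 0.22).

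Matrix genes moved in both directions. Tnc, the glycoprotein tenascin C of growing and healing tissue, was one of the largest falls of all, 13.697, 13.61 and 13.69 in the fetal and 9.33, 9.59 and 10.08 in the adult arrays (-3.997, SE 0.19, limma adjusted p = 5.42e-08), and all 7 of its probes fell. Vcan, the large hyaluronan-binding proteoglycan versican, measured 10.40, 10.58 and 10.55 in the fetal and 7.56, 7.74 and 7.49 in the adult arrays (-2.92, SE 0.13), and Fn1, fibronectin, measured 12.93, 12.69 and 12.81 in the fetal and 10.76, 11.31 and 10.93 in the adult arrays (-1.81, SE 0.29). Against these, Ccn2, the connective tissue growth factor gene, measured 11.18, 10.52 and 10.60 in the fetal and 14.39, 14.44 and 14.08 in the adult arrays (3.54, SE 0.18). Prelp, a leucine-rich proteoglycan that anchors basement membranes, measured 10.74, 10.36 and 10.39 in the fetal and 14.01, 14.004 and 13.54 in the adult arrays (3.35, SE 0.28). Adult and fetal arrays were far apart in all 5 genes.

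Collagens fell more often than they rose, and of 31 measured members 4 were higher and 13 lower in adult cells, with a median difference of -0.27. The fibrillar chains Col1a1 (-1.83, SE 0.46) and Col1a2 (-1.83, SE 0.38) and the fibril-associated Col14a1 (-2.92, SE 0.51) fell, as did Col18a1 (-1.78, SE 0.15) and Col4a2 (-1.12, SE 0.19) of basement membranes. Col3a1 was not called (-0.44, SE 0.33). Of the collagen VI chains, Col6a1 measured 14.73, 14.53 and 14.65 in the fetal and 14.43, 14.39 and 14.29 in the adult arrays and was not called (-0.27, SE 0.13, limma adjusted p = 0.111; with the mean of all its probes -0.40, limma adjusted p = 0.0422). Col6a2 fell, 12.78, 12.08 and 12.05 in the fetal and 11.19, 11.15 and 10.88 in the adult arrays (-1.23, SE 0.24, limma adjusted p = 0.00141). Col8a1 (1.52, SE 0.27) and Col5a3 (1.05, SE 0.20) rose. Connective tissue cells also make fibrillar collagens, and of 17 fibroadipogenic markers 5 were higher (29.4%, against 21.9% over all genes) and 6 lower (35.3%, against 23.4%) in adult cells. Of these counts, the number higher was 3 without fetal replicate 2 or fetal replicate 3. Their median level was 10.49, 10.04 and 10.52 in the fetal and 9.78, 10.36 and 10.19 in the adult arrays, their summed linear intensity was 34804 to 51177 in fetal and 57933 to 58865 in adult arrays, and the defining receptor gene Pdgfra measured 10.47, 10.04 and 10.52 in the fetal and 7.95, 8.44 and 8.24 in the adult arrays (-2.13, SE 0.30). Col1a1 and Col3a1 stand in both lists, and the part of such cells in the collagen values was not tested.

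Among matrix glycoproteins, of 42 measured members 19 were higher and 11 lower in adult cells, with a median difference of 0.35. Beside Tnc and Fn1 the microfibril genes Mfap2 (-3.18, SE 0.27) and Mfap4 (-2.75, SE 0.37) fell. Beside Ccn2, Vtn, vitronectin (2.91, SE 0.39), Tnxb, tenascin X (2.92, SE 0.46), and Tgfbi (2.35, SE 0.31) rose. In the basement membrane list, of 14 measured members 3 were higher and 5 lower in adult cells, with a median difference of -0.18. These shares, 21.4% and 35.7%, stand beside 21.9% and 23.4% over all genes. Laminin chain genes moved in opposite directions within that list. The beta 1 chain gene Lamb1 measured 10.08, 9.72 and 9.74 in the fetal and 7.75, 8.18 and 7.78 in the adult arrays (-1.95, SE 0.16), and the beta 2 chain gene Lamb2 measured 10.30, 10.22 and 9.95 in the fetal and 12.29, 11.93 and 11.88 in the adult arrays (1.88, SE 0.22). Lamc3 rose from the low end of the arrays (2.61, SE 0.22), Lama5 fell (-1.07, SE 0.15) and Lama2 was not called (-0.05, SE 0.19). Among proteoglycans and hyaluronan genes, of 29 measured members 9 were higher and 9 lower in adult cells, with a median difference of -0.11, against 21.9% higher and 23.4% lower over all genes. The heparan sulfate proteoglycan gene Gpc3 measured 14.32, 13.96 and 14.12 in the fetal and 11.17, 11.59 and 11.23 in the adult arrays (-2.80, SE 0.15), and the hyaluronan synthase gene Has2 fell (-2.19, SE 0.20).

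Genes that remodel or bind the matrix were more often higher in adult cells. In the list of remodelling enzymes and inhibitors, of 62 measured members 29 were higher and 9 lower in adult cells, with a median difference of 0.40. Mmp2, a gelatinase, measured 12.17, 11.79 and 11.90 in the fetal and 14.12, 14.12 and 14.04 in the adult arrays (2.14, SE 0.12). The protease inhibitor gene Serping1 measured 11.92, 11.56 and 11.45 in the fetal and 14.92, 14.88 and 14.67 in the adult arrays (3.18, SE 0.22), and of 9 inhibitors 6 rose, Timp2 (1.33, SE 0.16) and Timp3 (1.25, SE 0.19) among them. The procollagen enhancer gene Pcolce2 (2.98, SE 0.15) and the crosslinking enzyme gene Loxl1 (1.15, SE 0.15) rose, the membrane protease gene Fap fell (-1.91, SE 0.27) and Mmp14 was not called (0.05, SE 0.20). Among matrix receptors, of 26 measured members 11 were higher and 4 lower in adult cells, with a median difference of 0.20. Itgb4, the integrin subunit that binds laminin with α6, measured 8.57, 8.27 and 8.01 in the fetal and 13.23, 13.08 and 12.30 in the adult arrays (4.59, SE 0.58, limma adjusted p = 5.60e-05), while its partner gene Itga6 was not called (0.21, SE 0.20). The dystroglycan gene Dag1 rose (0.94, SE 0.17), the hyaluronan receptor gene Cd44 fell (-1.26, SE 0.23) and Itgb1, the partner of α7-integrin, was not called (-0.22, SE 0.15). Without adult replicate 3 both integrin genes were called by limma, Itga6 higher (0.44, adjusted p = 0.0445) and Itgb1 lower (-0.37, adjusted p = 0.0386).

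**Figure D4:**
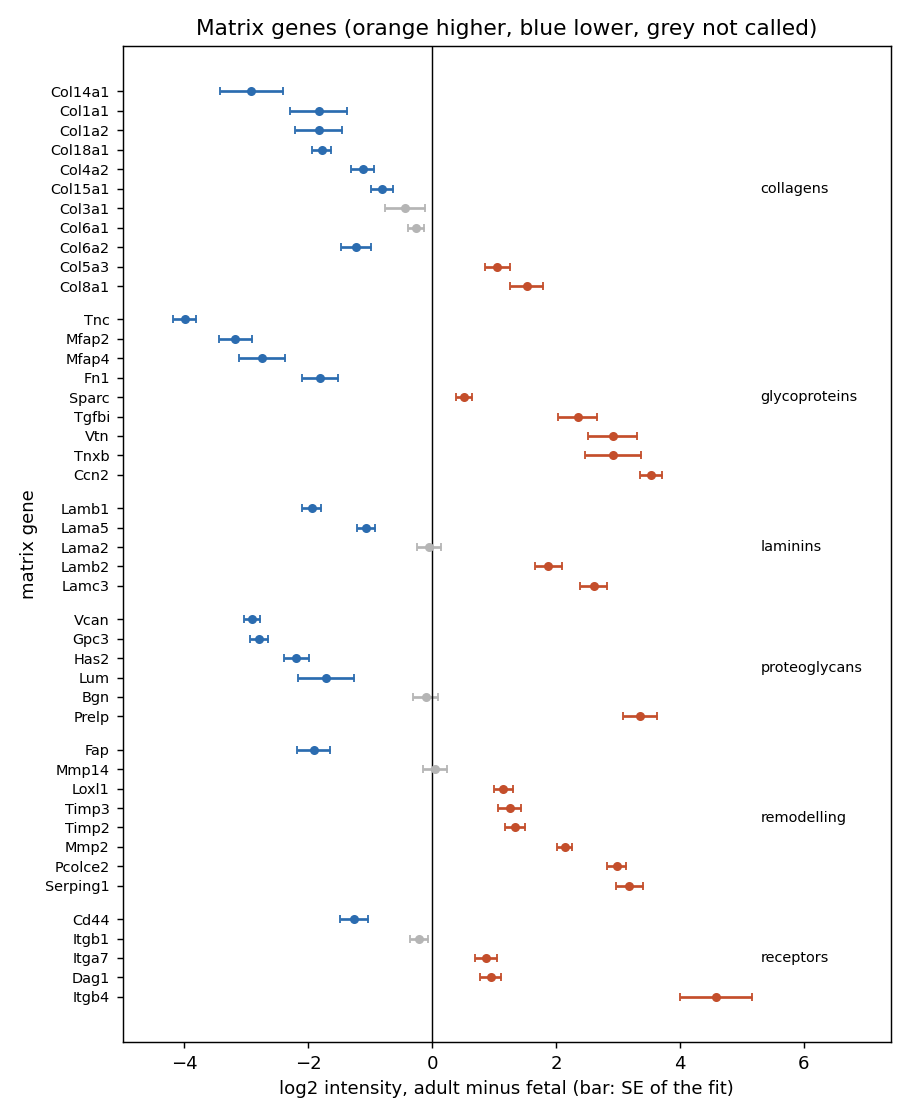
Adult minus fetal difference in log2 intensity with the SE of the fit for matrix genes named in the text and further members of the same lists, grouped by kind. Tnc lies at -4.00 and Itgb4 at 4.59, and members of every kind lie on both sides of 0.

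Of the signalling lists, TGF-beta and BMP genes were more often higher in adult cells. In the Wnt pathway, of 47 measured members 14 were higher and 10 lower in adult cells, with a median difference of 0.04. These shares, 29.8% and 21.3%, lay near the 21.9% and 23.4% over all genes. When 1 array was left out, the number higher was 9 without fetal replicate 2 and the number lower was 6 without fetal replicate 2. Of its secreted antagonists, Sfrp2 measured 10.60, 10.45 and 10.70 in the fetal and 7.93, 8.14 and 7.82 in the adult arrays (-2.62, SE 0.12) and Sfrp5 measured 7.78, 7.37 and 7.71 in the fetal and 10.79, 10.73 and 10.24 in the adult arrays (2.97, SE 0.34). Of its ligands, Wnt5a fell (-1.38, SE 0.26) and Wnt6 rose (2.11, SE 0.35). In the TGF-beta and BMP pathway, of 42 measured members 23 were higher and 7 lower in adult cells, with a median difference of 0.46. The ligand genes Bmp4 (2.01, SE 0.15), Bmp6 (1.98, SE 0.17) and Tgfb3 (1.52, SE 0.11) and the coreceptor gene Tgfbr3 (2.39, SE 0.22) rose, as did the targets Id2 (1.76, SE 0.32) and Id3 (0.94, SE 0.17), and Gdf10 fell (-1.88, SE 0.35). Bmp4 measured 12.19, 11.75 and 11.79 in the fetal and 14.12, 14.01 and 13.63 in the adult arrays, without overlap. Among growth factors and their receptors, of 41 measured members 15 were higher (36.6%) and 8 lower (19.5%), against 21.9% and 23.4% over all genes. Their median difference was 0.17. Without fetal replicate 2 or adult replicate 1 the number lower was 5. Gdnf, a neurotrophic factor, measured 9.48, 8.40 and 8.50 in the fetal and 11.62, 12.39 and 11.40 in the adult arrays (3.01, SE 0.31), and Hbegf, an EGF receptor ligand, rose (2.74, SE 0.17). Pdgfc measured 10.37, 10.29 and 10.38 in the fetal and 7.91, 8.07 and 7.90 in the adult arrays (-2.39, SE 0.11), and Vegfb fell (-2.23, SE 0.17). The receptor genes Met (0.03, SE 0.18) and Fgfr4 (0.01, SE 0.26) were not called.

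Guidance cues steer axons, vessels and migrating cells. In the list of semaphorins, ephrins and axon guidance genes, of 39 measured members 10 were higher and 13 lower in adult cells, with a median difference of -0.04. These shares, 25.6% and 33.3%, lay near the 21.9% and 23.4% over all genes. Plxnd1, a semaphorin receptor of vessels and other cells, measured 8.66, 8.61 and 8.59 in the fetal and 12.24, 12.14 and 12.11 in the adult arrays (3.54, SE 0.13, limma adjusted p = 1.20e-08). The ephrin receptors moved apart. Ephb1 measured 7.88, 8.09 and 7.97 in the fetal and 10.54, 10.18 and 10.59 in the adult arrays (2.45, SE 0.14), while Epha3 measured 10.92, 11.23 and 11.33 in the fetal and 8.14, 8.52 and 8.02 in the adult arrays (-2.93, SE 0.18). Of the secreted cues, the repellent gene Sema3a fell, 10.24, 10.45 and 10.61 in the fetal and 7.91, 7.90 and 8.05 in the adult arrays (-2.48, SE 0.14), as did Slit2 (-1.70, SE 0.11), and Sema3b rose (1.42, SE 0.20). Fetal and adult arrays did not overlap for any of these 6 genes.

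Genes of antigen presentation were higher in adult cells. In the list of interferon and antigen presentation genes, of 46 measured members 35 were higher and 1 lower in adult cells, with a median difference of 1.03. Of 18 class I, class II and peptide loading genes 15 rose and 0 fell by limma. The class I gene H2-D1 measured 8.82, 7.99 and 7.89 in the fetal and 12.27, 12.14 and 12.10 in the adult arrays (3.94, SE 0.20, limma adjusted p = 9.71e-08). Of its 4 probes 3 rose and 1 was not called, and class I genes are near-identical, so which gene a probe reads is uncertain. H2-T23 measured 8.11, 7.70 and 7.79 in the fetal and 11.55, 11.44 and 11.11 in the adult arrays (3.50, SE 0.23). B2m, the invariant light chain of class I molecules, measured 12.21, 11.64 and 12.36 in the fetal and 14.14, 14.34 and 14.19 in the adult arrays (2.15, SE 0.18). The peptide transporter gene Tap2 (2.43, SE 0.18) and the immunoproteasome gene Psmb8 (2.04, SE 0.11) rose. In the list of complement and chemokines, of 27 measured members 17 were higher and 3 lower in adult cells, with a median difference of 0.95. Of these counts, the number lower was 1 without fetal replicate 3. C2 (3.34, SE 0.54), the chemokine gene Ccl19 (3.22, SE 0.21) and the complement shield gene Cd59a (2.75, SE 0.15) rose. Of 7 measured immune cell markers 3 were higher and 0 lower by limma, and their summed linear intensity was 1312 to 1389 in fetal and 2018 to 2856 in adult arrays. The part of immune cells in these values was not tested.

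Promoters of B2m and H2-T23 are shown because they hold the core letters of the interferon response element, GAAA, any pair of bases and GAAA again, on either strand (capitals), in RefSeq GRCm38.p6 at chr2:122147437-122147736, plus strand, and chr17:36032652-36032951, minus strand.
B2m: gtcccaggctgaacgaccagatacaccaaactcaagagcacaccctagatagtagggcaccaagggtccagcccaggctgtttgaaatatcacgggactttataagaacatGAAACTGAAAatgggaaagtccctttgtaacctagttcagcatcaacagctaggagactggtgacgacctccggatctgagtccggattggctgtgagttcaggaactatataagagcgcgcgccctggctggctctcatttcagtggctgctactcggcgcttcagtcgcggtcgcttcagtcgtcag
H2-T23: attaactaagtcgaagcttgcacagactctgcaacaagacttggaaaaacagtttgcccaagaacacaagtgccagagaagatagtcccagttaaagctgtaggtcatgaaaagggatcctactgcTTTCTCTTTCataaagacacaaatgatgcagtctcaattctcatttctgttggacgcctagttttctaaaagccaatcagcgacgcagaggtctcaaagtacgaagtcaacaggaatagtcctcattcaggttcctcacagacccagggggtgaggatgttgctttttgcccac
The core was in 15 of 42 promoter entries of the list (35.7%) against 3.44% of all 32851 entries.

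Stress and immediate early genes were mostly higher in adult cells. In that list, of 42 measured members 36 were higher and 1 lower in adult cells, with a median difference of 1.75. Hspa1b, an inducible heat shock protein 70, measured 11.11, 8.36 and 10.08 in the fetal and 14.08, 14.18 and 13.81 in the adult arrays (4.17, SE 0.53), with fetal replicate 2 the lowest fetal array. Hspb1, a small heat shock protein, measured 12.22, 10.46 and 11.27 in the fetal and 14.88, 14.31 and 14.49 in the adult arrays (3.24, SE 0.38). Hmox1, heme oxygenase 1, measured 7.80, 7.59 and 7.54 in the fetal and 10.997, 10.92 and 11.06 in the adult arrays (3.35, SE 0.12). The kinase-like gene Trib1 (3.30, SE 0.30), Atf3 (2.43, SE 0.14) and the AP-1 genes Junb (1.83, SE 0.21) and Jun (1.49, SE 0.18) rose, and Fos, near the top of the arrays at both ages, rose by 0.77 (SE 0.13). The heat shock element, with its units GAA, TTC and GAA set apart by a pair of bases each, searched on both strands, was in 0 of 42 promoter entries of the list (0%) against 0.603% of all 32851 entries.

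Clock and glucocorticoid genes were also more often higher. In the circadian list, of 17 measured members 14 were higher and 0 lower in adult cells, with a median difference of 1.08. Nr1d1, the clock repressor Rev-erb alpha, measured 7.65, 7.37 and 7.36 in the fetal and 11.10, 10.92 and 10.90 in the adult arrays (3.51, SE 0.12, limma adjusted p = 1.13e-08). Dbp, a clock output factor, measured 9.89, 9.74 and 9.52 in the fetal and 13.42, 12.73 and 13.18 in the adult arrays (3.39, SE 0.18). Arntl, the activator Bmal1, rose too, 9.25, 8.38 and 8.595 in the fetal and 11.01, 11.28 and 10.66 in the adult arrays (2.24, SE 0.23). The fetal and adult arrays of all 3 genes did not overlap. Per1, a repressor that also responds to glucocorticoid, measured 10.86, 11.25 and 11.57 in the fetal and 12.84, 12.36 and 11.81 in the adult arrays (1.11, SE 0.24), and 1 of its RefSeq promoters, chr11:69098699-69098998, plus strand, is shown because it holds the E-box letters CACGTG (capitals).
Per1: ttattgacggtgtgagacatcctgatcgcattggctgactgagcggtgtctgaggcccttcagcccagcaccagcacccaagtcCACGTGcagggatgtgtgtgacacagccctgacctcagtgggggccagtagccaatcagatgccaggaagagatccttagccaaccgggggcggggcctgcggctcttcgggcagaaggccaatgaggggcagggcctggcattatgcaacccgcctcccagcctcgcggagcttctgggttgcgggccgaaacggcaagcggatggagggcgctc
The E-box was in 4 of 22 promoter entries of the list (18.2%) against 7.15% of all 32851 entries, and the D-box letters TTATGTAA in 1 of 22 promoter entries of the list (4.55%) against 0.938% of all 32851 entries. In the glucocorticoid list, which holds Hsd11b1, Klf9 and Per1, of 20 measured members 16 were higher and 2 lower in adult cells, with a median difference of 1.69. Sgk1 (2.26, SE 0.26) and Tsc22d3 (1.24, SE 0.23) rose. The receptor gene Nr3c1 (-0.09, SE 0.16) and the target gene Fkbp5 (-0.30, SE 0.23) were not called.

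Redox and lysosomal genes were more often higher, and genes of protein breakdown by the proteasome and of respiration more often lower. In the redox list, of 46 measured members 25 were higher and 6 lower in adult cells, with a median difference of 0.57. Srxn1, sulfiredoxin, measured 10.35, 9.98 and 9.60 in the fetal and 13.48, 13.95 and 13.23 in the adult arrays (3.58, SE 0.26), and Aldh1a1, an aldehyde dehydrogenase, measured 7.45, 7.34 and 7.42 in the fetal and 10.87, 11.24 and 10.23 in the adult arrays (3.38, SE 0.21). The antioxidant response letters TGACNNNGC were in 11 of 53 promoter entries of the list (20.8%) against 12.4% of all 32851 entries. In the lysosome and autophagy list, of 38 measured members 21 were higher and 2 lower in adult cells, with a median difference of 0.42, with the autophagy receptor gene Sqstm1 at 2.21, SE 0.18. When 1 array was left out, the number lower was 1 without fetal replicate 1. In the proteasome list, of 26 measured members 0 were higher and 14 lower in adult cells, with a median difference of -0.39. Without fetal replicate 2 the number lower was 8 and the number lower was 9 without fetal replicate 3, adult replicate 1 or adult replicate 2. In the oxidative phosphorylation list, of 61 measured members 2 were higher and 24 lower (39.3%, against 23.4% over all genes) in adult cells. Their median difference was -0.32, with differences between -0.98 and 1.37. Leaving out 1 array gave between 16 and 31 members lower. Ribosome assembly genes gave 3 of 22 higher (13.6%) and 5 lower (22.7%), median -0.14, and sterol synthesis genes 2 of 19 higher (10.5%) and 5 lower (26.3%), median 0.0025. Of these counts, the number higher was 4 without adult replicate 3 and the number lower was 3 without fetal replicate 1 or fetal replicate 2. Glycolysis genes were mixed (6 of 25, 24%, higher and 9, 36%, lower, median 0.05), as were fatty acid genes (12 of 27, 44.4%, higher and 6, 22.2%, lower, median 0.29). Over all genes 21.9% were higher and 23.4% lower. Ribosomal protein genes gave 9 of 41 higher (22.0%) and 5 lower (12.2%), median -0.05, and the number higher was 0 after quantile normalization and 2 with the background subtracted. When 1 array was left out, the number higher was 4 without adult replicate 2 and the number higher was 5 without fetal replicate 1, fetal replicate 2 or fetal replicate 3.

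Markers of Schwann, mural and endothelial cells were higher in the adult arrays. Of 9 Schwann and neural markers 7 were higher and 0 lower by limma, and their summed linear intensity was 19766 to 21231 in fetal and 42726 to 57634 in adult arrays. Mbp, a myelin protein, measured 8.23, 7.67 and 7.74 in the fetal and 13.65, 13.95 and 13.31 in the adult arrays (5.75, SE 0.52, limma adjusted p = 5.35e-06). All 5 of its probes rose, but the others by far less, between 0.48 and 1.59, so the size rests on the brightest probe. The myelin gene Mag (3.05, SE 0.29), the glial factor gene Sox10 (2.84, SE 0.18) and the peripheral myelin gene Ncmap (4.21, SE 0.24) rose from levels under 7.82. Of 16 mural and smooth muscle markers 12 were higher and 0 lower by limma, and their summed linear intensity was 59381 to 70468 in fetal and 113220 to 120610 in adult arrays. Des and Notch3, given above with the myogenic and Notch genes, stand in this list too, and their part in its sum was not tested. Myh11, smooth muscle myosin, measured 7.79, 7.66 and 7.503 in the fetal and 12.41, 12.32 and 12.51 in the adult arrays (4.76, SE 0.29), and the pericyte gene Rgs5 measured 9.07, 10.18 and 10.23 in the fetal and 10.79, 12.40 and 12.29 in the adult arrays (2.002, SE 0.46). Of 17 endothelial markers 14 were higher and 1 lower, and their summed linear intensity was 6930 to 7379 in fetal and 14665 to 19992 in adult arrays. Without fetal replicate 1, fetal replicate 2, fetal replicate 3 or adult replicate 1 the number lower was 0. Their median level was 7.84, 7.93 and 7.94 in the fetal and 9.09, 9.72 and 9.27 in the adult arrays, and Pecam1 (1.39, SE 0.23) and Cdh5 (1.48, SE 0.23) rose, whereas Kdr was not called (0.22, SE 0.12). The summed linear intensity of 5 measured adipocyte markers was 2739 to 4979 in fetal and 1467 to 1710 in adult arrays. Of them 1 was higher (20%, against 21.9% over all genes) and 2 lower (40%, against 23.4%). Of these counts, the number higher was 0 without fetal replicate 1 or fetal replicate 2. Of 9 tendon and cartilage markers 5 were higher and 1 lower, and their summed linear intensity was 55689 to 62564 in fetal and 74662 to 78173 in adult arrays. When 1 array was left out, the number lower was 0 without fetal replicate 1 or adult replicate 2. Among them Chad, a cartilage matrix protein, measured 7.43, 7.42 and 7.22 in the fetal and 9.01, 9.69 and 8.54 in the adult arrays (1.72, SE 0.23), and Scx, the tendon factor scleraxis, fell (-0.72, SE 0.22). The call of Scx was lost without fetal replicate 1 (-0.46, limma adjusted p = 0.0693) or adult replicate 2 (-0.58, limma adjusted p = 0.0784). The median level of the tendon and cartilage list was 7.43, 7.66 and 7.78 in the fetal and 8.27, 8.69 and 8.54 in the adult arrays. Its sum was thus carried by a few bright members. The list was drawn up with Egr1, an immediate early gene, whose part in the sum was not tested. The summed levels did not overlap between fetal and adult arrays for any of the marker lists, those of fibroadipogenic, immune and erythroid genes included. All were higher in the adult arrays except that of the adipocyte list, which was lower. The part of such cells in the differences of other genes was not tested.

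Globin transcripts were higher in adult arrays, with Hba-a1 at 8.62, 11.27 and 9.24 in the fetal and 13.97, 13.91 and 13.26 in the adult arrays (4.002, SE 0.55), and fetal replicate 2 was the highest fetal array. Of 10 erythroid markers 3, all globins, were higher (30%, against 21.9% over all genes) and 1 lower (10%, against 23.4%). For 5 of the 10 both group means lay under 7.82. The summed linear intensity of the list was 4436 to 11480 in fetal and 31945 to 44639 in adult arrays. Without fetal replicate 2, adult replicate 1 or adult replicate 2 the number lower was 0 and the number lower was 2 without fetal replicate 1 or adult replicate 3. Alas2, the heme synthesis gene of red cell precursors, was not called (0.48, SE 0.30) and stayed near the low end of the arrays. The globin copies are near-identical, and which copy a probe reads is uncertain.

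Positional genes differed between the groups. Hox genes, which record position along the body axis, were lower in adult cells for 9 of the 14 measured in paralogue groups 2 to 8, and 0 of these were higher by limma. Of 10 in groups 9 to 13, 4 were higher and 1 lower. Hoxb4 measured 9.66, 10.01 and 9.85 in the fetal and 7.84, 8.04 and 7.92 in the adult arrays (-1.91, SE 0.13), and Hoxb5 (-1.66, SE 0.17), Hoxd4 (-1.46, SE 0.16) and Hoxa2 (-1.36, SE 0.15) fell. Hoxc10 measured 10.01, 9.44 and 9.49 in the fetal and 11.94, 11.92 and 11.74 in the adult arrays (2.22, SE 0.18), and Hoxc9 rose (1.71, SE 0.22). The Hox cofactor genes Meis1 (-1.10, SE 0.19) and Meis2 (-1.72, SE 0.17) fell. Tbx4, a hindlimb factor, measured 9.32, 8.78 and 8.97 in the fetal and 11.17, 10.84 and 11.02 in the adult arrays (1.99, SE 0.15). Over the whole list of Hox and limb genes, the median difference of the 25 measured members was -0.23. Of them 5 were higher (20%, against 21.9% over all genes) and 12 lower (48%, against 23.4%). Of these counts, the number higher was 3 without fetal replicate 2 or adult replicate 1. As the muscles taken at each age are not in the labels, age and place of origin cannot be told apart for these genes.

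**Figure D5:**
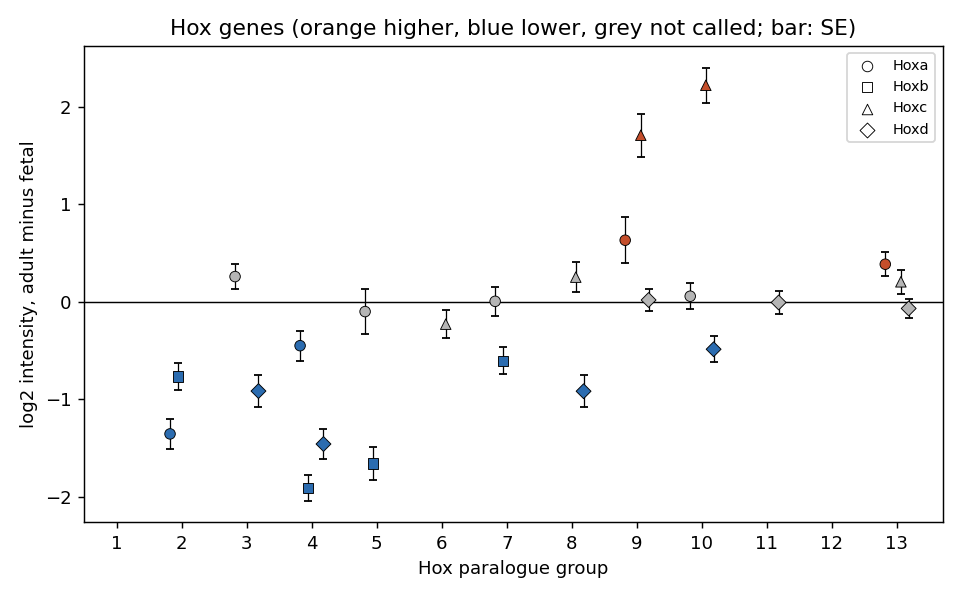
Adult minus fetal difference in log2 intensity with its SE for the 24 measured Hox genes, by paralogue group, with a symbol for each cluster and colour by call. Genes of groups 2 to 5 lie mostly under 0, and Hoxc9 and Hoxc10 lie highest, at 1.71 and 2.22.

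Xist, the RNA that coats the inactive X chromosome of female cells, was among the largest falls, 11.32, 11.77 and 11.54 in the fetal and 7.499, 7.27 and 7.14 in the adult arrays (-4.24, SE 0.37). All 4 of its probes fell, with differences from -4.24 to -1.16. The adult arrays lay under 7.82 and every fetal array above 11. The Y-linked gene Eif2s3y was present at both ages and higher in adult cells, 10.41, 10.21 and 10.37 in the fetal and 11.46, 11.73 and 11.22 in the adult arrays (1.14, SE 0.15), and the Y-linked Kdm5d (-0.04, SE 0.12) and Uty (-0.28, SE 0.11) were not called. Of 12 measured Y-linked genes 6 were higher (50%, against 21.9% over all genes) and 0 lower by limma, with a median difference of 0.49. Apart from Eif2s3y, those that were higher had fetal levels from 7.55 to 8.145, near the low end of the arrays. The median difference was -0.05 over 404 X-linked genes, of which 63 were higher and 109 lower, and -0.0047 over 12052 autosomal genes. The X-linked shares were 15.6% higher and 27.0% lower, against 22.0% and 23.3% over autosomal genes. The labels give no sex, so age and the sex make-up of the samples cannot be told apart, for these genes or for any other gene compared here.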

How the data were processed

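Per the labels' protocols, a mirVana kit gave the RNA, a Bioanalyser its quality, and a TotalPrep kit the biotin-labelled cRNA that was hybridised. The authors deposited 1 linear intensity per probe and array; the background correction and normalization behind these intensities are not given in the sources used here. No further normalization was applied, and log2 of the intensity was taken with no offset. Of 24538 probes, 20211 had 1 gene symbol in GEO's platform annotation, and the brightest probe over all 9 arrays stood for each of 12488 genes.

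The adult minus fetal difference was fitted with limma 3.58.1 (lmFit and eBayes, R 4.3.3) on all 9 arrays by age group, two-sided, with Benjamini-Hochberg adjustment over 12488 genes and calls at 0.05. The script was tested on simulated data. Python 3.11.15 and pandas 2.3.3 made the summaries.

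The text names the 20 genes with the greatest increase and the 20 with the greatest decrease among those called with no overlap of arrays and whose higher mean reached the median of all genes, 9.16 (provisional symbols left out), fixed genes of the sort, myogenesis and matrix, and members of the gene lists; Eif2s3y, Kdm5d and Uty were chosen after their values were seen. Members and lists were chosen with earlier results of these data known, so a list's counts are a description. Alternatives were quantile normalization, background subtraction, a filter on dim genes, the mean of all probes, an intensity trend, array weights, only the fetal and adult arrays, the replicate number as a block, and leaving out each array in turn. Slides, scan dates and 4327 probes without exactly 1 symbol were not used in the comparison, and some genes are not analysed here.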

Additional observations from a re-analysis of the deposited data

How the results depend on the processing

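Against 5654 genes called, the number was 5862 with the replicate number as a block, 5618 after quantile normalization, 5590 with each array's lowest intensity subtracted, 5763 with the mean of all probes, 5713 with an intensity trend, 6006 with array weights, 5420 from the fetal and adult arrays alone and 4154 of the 6962 genes kept by the filter on dim genes. Leaving out each array in turn gave 4660 to 5810. All of these lie within 1.5 times the main count, and between 4125 and 5579 of the genes called under each alternative other than the omission of an array were among the 5654. Same-numbered fetal and adult arrays deviated from their group means with correlations of 0.12, -0.06 and 0.15, so the numbers were not taken to pair the samples. A block fit without the neonatal arrays, chosen after seeing the data, called 5419 genes. Of the 184 called genes named in the text, 183 kept direction and call under each of the 15 alternatives that tested them, the exception being Scx. Of the 21 not called, 7 were called under at least 1 alternative: Cd34, Itga6, Itgb1, Myog and Col6a1, as given with their values, Alas2 from the fetal and adult arrays alone (0.48, limma adjusted p = 0.0109), with their block (0.0200) or with the background subtracted (1.33, 0.0211), and Uty with the background subtracted (-0.55, 0.0223), the mean of all probes (-0.28, 0.0302) or an intensity trend (-0.28, 0.0312). Of 1260 counts of list members, 1192 were within 1.5 times the main count. Signal near the background limits the differences of dim genes, and 3 arrays a group limit precision.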

Other observations

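The 4327 probes without exactly 1 gene symbol carried differences as well. Over all probes, 1402 of them were called by limma between adult and fetal cells, 714 higher and 688 lower, with differences from -4.40 to 5.66 on the log2 scale. Among the other probes of genes called through their brightest probe, 48 probes were called in the opposite direction.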
